A study of Rattus norvegicus with 4 samples.

Results

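Assembled loci flanking named genes were studied in the livers of rats anesthetized with sevoflurane or desflurane. An assembled locus is a transcribed stretch that was put together from the reads and received a running number in place of a gene name. A locus was taken as flanking when it overlapped no named gene on either strand and lay within 10 kb of one, its neighbor. By this rule 1619 of 22303 assembled loci flanked a named gene in the sevoflurane 0 h library, 2318 of 24896 in sevoflurane 6 h, 1842 of 22889 in desflurane 0 h and 1914 of 23380 in desflurane 6 h. Loci were matched between libraries by chromosome, strand and a reciprocal overlap of at least 0.8, and 330 flanking loci were found in all 4 libraries, among 7660 assembled loci so matched.

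Each group was a single liver of a wild type rat, so no value has a replicate error. The controls (0 h) inhaled sevoflurane (4.5%) or desflurane (6%) until they lost consciousness, and the treated animals inhaled the same agent for 6 h. Control and anesthetized livers were taken 6 h apart, so an effect of 6 h under anesthesia and one of the hour of the day cannot be told apart. All libraries were total RNA of liver tissue, in which fewer cells of a type and less RNA per cell cannot be told apart. All 18 hepatocyte markers were above a TPM of 1 in every library, as was 1 of 13 markers of pancreatic acinar cells. Red blood cell markers summed to a TPM of 632 and 992 in the sevoflurane and desflurane controls and to 1671 and 1864 at 6 h. Stellate cell markers summed to 125 and 137 in the controls and to 190 and 195 at 6 h, and lymphoid markers to 26.9 and 20.7 in the controls and to 16.7 and 16.2 at 6 h. The part of these cell types in the results below was not tested.

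Named genes in such a table are those of the annotation used for the assembly, and everything else that is transcribed appears as assembled loci. A locus close to a gene can be a gene of its own that the annotation lacks, RNA started in the reverse direction from a shared promoter, or RNA that runs on past the end of the gene. Position and strand help to sort these forms, since a divergent locus lies upstream on the opposite strand (head to head) and a run-on locus lies downstream on the same strand.

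The promoters of 7 neighbors are shown because 6 of them had a locus head to head within 1 kb and the last, Cyp2b1, is the neighbor of the locus that changed most. They run from 250 bases before to 50 bases after the gene start and were taken from RefSeq for the assembly GRCr8, which is not the assembly of the tables. Capitals mark the letters of a TATA box (TATAAA), of a CAAT box (CCAAT), of a GC box (GGGCGG) and of an E-box (CACGTG), searched on both strands, where adjoining matches run together. In the tables the locus upstream of Cenpq began 147 bases from the gene, that of Grtp1 233, that of Azgp1 217, that of Fen1 302, that of Gclm 509 and that of Sdccag8 607, so that the first 3 gaps are shorter than the stretch printed before the start.
Cenpq, GRCr8 chr9:27454089-27454388, plus strand: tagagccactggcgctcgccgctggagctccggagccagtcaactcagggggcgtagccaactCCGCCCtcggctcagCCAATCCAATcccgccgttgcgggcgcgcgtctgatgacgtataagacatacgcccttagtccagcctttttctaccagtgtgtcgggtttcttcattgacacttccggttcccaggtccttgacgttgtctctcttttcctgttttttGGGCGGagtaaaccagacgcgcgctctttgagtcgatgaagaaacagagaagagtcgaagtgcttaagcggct
Grtp1, GRCr8 chr16:83034716-83035015, plus strand: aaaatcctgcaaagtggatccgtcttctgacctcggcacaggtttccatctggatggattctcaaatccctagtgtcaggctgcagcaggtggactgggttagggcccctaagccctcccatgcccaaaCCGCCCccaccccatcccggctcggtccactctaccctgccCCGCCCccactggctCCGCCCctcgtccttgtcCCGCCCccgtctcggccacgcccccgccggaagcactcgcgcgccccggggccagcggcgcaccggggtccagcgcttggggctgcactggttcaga
Azgp1, GRCr8 chr12:22044507-22044806, plus strand: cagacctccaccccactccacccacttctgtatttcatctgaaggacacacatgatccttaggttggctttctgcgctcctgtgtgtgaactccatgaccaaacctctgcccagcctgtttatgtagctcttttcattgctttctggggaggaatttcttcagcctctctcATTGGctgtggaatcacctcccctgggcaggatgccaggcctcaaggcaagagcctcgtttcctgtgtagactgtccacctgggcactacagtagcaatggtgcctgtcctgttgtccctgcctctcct
Fen1, GRCr8 chr1:216274347-216274646, minus strand: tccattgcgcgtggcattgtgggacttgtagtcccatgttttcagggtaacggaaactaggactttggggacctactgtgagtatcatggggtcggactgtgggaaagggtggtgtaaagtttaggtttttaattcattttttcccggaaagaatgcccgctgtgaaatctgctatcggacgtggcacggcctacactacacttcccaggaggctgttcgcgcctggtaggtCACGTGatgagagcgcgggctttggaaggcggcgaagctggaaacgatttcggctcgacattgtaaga
Gclm, GRCr8 chr2:213031885-213032184, plus strand: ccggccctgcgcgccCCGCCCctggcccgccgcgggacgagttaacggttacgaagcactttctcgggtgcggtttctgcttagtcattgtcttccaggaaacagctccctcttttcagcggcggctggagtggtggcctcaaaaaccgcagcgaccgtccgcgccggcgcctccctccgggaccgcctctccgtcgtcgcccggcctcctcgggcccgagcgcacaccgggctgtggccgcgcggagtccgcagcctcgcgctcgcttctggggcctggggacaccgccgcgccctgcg
Sdccag8, GRCr8 chr13:91286537-91286836, plus strand: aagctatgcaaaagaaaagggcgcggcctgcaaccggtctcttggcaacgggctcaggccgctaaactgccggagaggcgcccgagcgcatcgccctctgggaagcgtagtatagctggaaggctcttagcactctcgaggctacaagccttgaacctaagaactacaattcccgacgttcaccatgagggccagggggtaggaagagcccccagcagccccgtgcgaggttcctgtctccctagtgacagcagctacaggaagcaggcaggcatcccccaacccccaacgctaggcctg
Cyp2b1, GRCr8 chr1:90645869-90646168, plus strand: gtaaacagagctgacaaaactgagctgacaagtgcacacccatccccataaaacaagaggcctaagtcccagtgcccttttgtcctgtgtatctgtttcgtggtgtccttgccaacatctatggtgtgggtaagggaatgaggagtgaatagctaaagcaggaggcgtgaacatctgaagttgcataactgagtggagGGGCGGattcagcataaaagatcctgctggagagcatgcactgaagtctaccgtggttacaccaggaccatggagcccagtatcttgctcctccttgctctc
Of 56 neighbors with a head-to-head locus within 1 kb, 48 had a promoter in the RefSeq table, and none of these held TATAAA, against 8.07% of 223 promoters of the other neighbors, 13.1% of 19005 promoters of protein-coding genes and 14.3% of all 27457 promoters. GGGCGG stood in 58.3% of the 48, in 57.0% of the other neighbors and in 43.1% of protein-coding promoters. CCAAT stood in 43.8%, 36.3% and 38.4% of the same sets, and CACGTG in 14.6%, 10.3% and 7.27%. The median number of CG pairs was 22 in the 48 promoters, 18 in those of the other neighbors and 12 in all protein-coding promoters. A match of letters is a description and no binding was measured.

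The libraries differed in how many flanking loci they held and in how many of these had a strand. Below, 4 values in a row stand for sevoflurane at 0 h and 6 h and then desflurane at 0 h and 6 h. The strand was not given for 33.9%, 50.7%, 36.3% and 39.0% of the flanking loci. The sevoflurane 6 h library stood apart through its 1175 loci without a strand, while loci with a strand were between 1070 and 1173 in all 4 libraries. Assembled loci without a strand were also most numerous in that library among those that overlapped a named gene (1574 against 723 to 957) and those farther than 10 kb from one (1845 against 958 to 1263). The aligned bases were 3.50, 5.38, 5.29 and 5.57 Gb, and the mean coverage of a locus at a TPM of 2 was 4.72, 6.84, 6.90 and 7.28, so low values were least precise in sevoflurane 0 h. The part of depth in the number of loci was not tested.

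**Figure D1:**
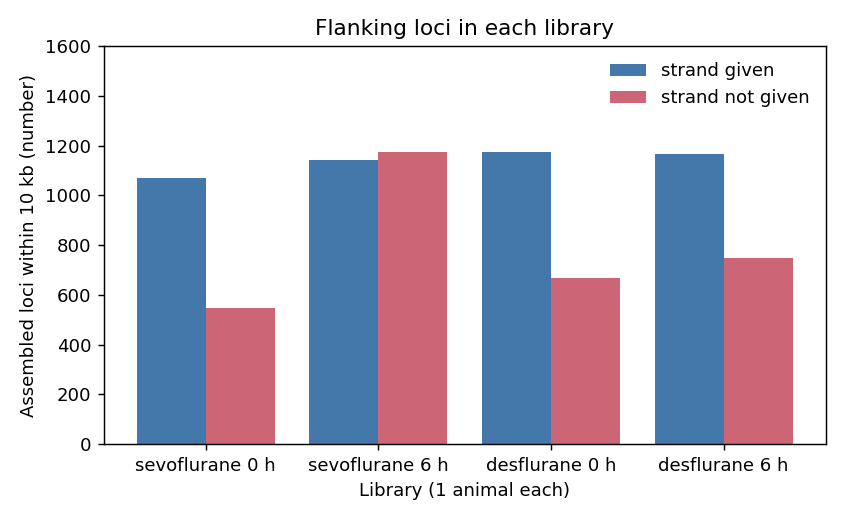
Number of flanking loci in each library (vertical axis), drawn separately for loci with a strand and loci whose strand was not given; each library is 1 animal. Loci without a strand numbered 1175 in sevoflurane 6 h and between 549 and 747 in the other libraries.

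The 330 matched loci made up 14.2% to 20.4% of the flanking loci of a library but 59.1% to 63.7% of their summed TPM. Their mean TPM over the 4 libraries had a median of 8.96 and ran from 1.13 to 10812, with 144 loci at 10 or more and 11 at 100 or more. A strand was given for 269 of them, 135 on the plus and 134 on the minus strand, and these spanned 14335 bases at the median, against 660 bases for the 61 without a strand. The loci had 322 different neighbors, of which 8 had 2 loci, and 82 loci lay within 10 kb of named genes on both sides. In 152 loci (46.1%) the highest library was less than 1.5 times the lowest, and in 78 it was more than 2 times.

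Among the 330 matched loci, upstream and downstream were equally frequent, 165 each, and most loci with a strand ran against their neighbor. Upstream, 53 loci lay on the strand of the neighbor and 82 on the opposite strand, and 30 had no strand. Downstream, the numbers were 48, 86 and 31. Loci on the opposite strand were thus 62.5% of the 269 with a strand (95% Wilson interval over loci 56.5% to 68.0%). The balance of upstream and downstream held for the matched loci only. Of all flanking loci of a library, 56.8%, 58.8%, 54.6% and 55.3% lay downstream.

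Distance from the neighbor set the head-to-head loci apart. Their gap had a median of 325 bases, and 56 of 82 (68.3%, Wilson interval 57.6% to 77.4%) lay within 1 kb. Of the 86 loci downstream on the opposite strand 26 (30.2%) lay within 1 kb, of the 101 on the same strand 11 (10.9%) and of the 61 without a strand 11 (18.0%). The same order held between named genes, where 1138 of 5147 adjacent pairs within 10 kb were head to head and 49.6% of these within 1 kb, against 27.0% of tail-to-tail pairs and 14.2% of pairs on the same strand.

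**Figure D2:**
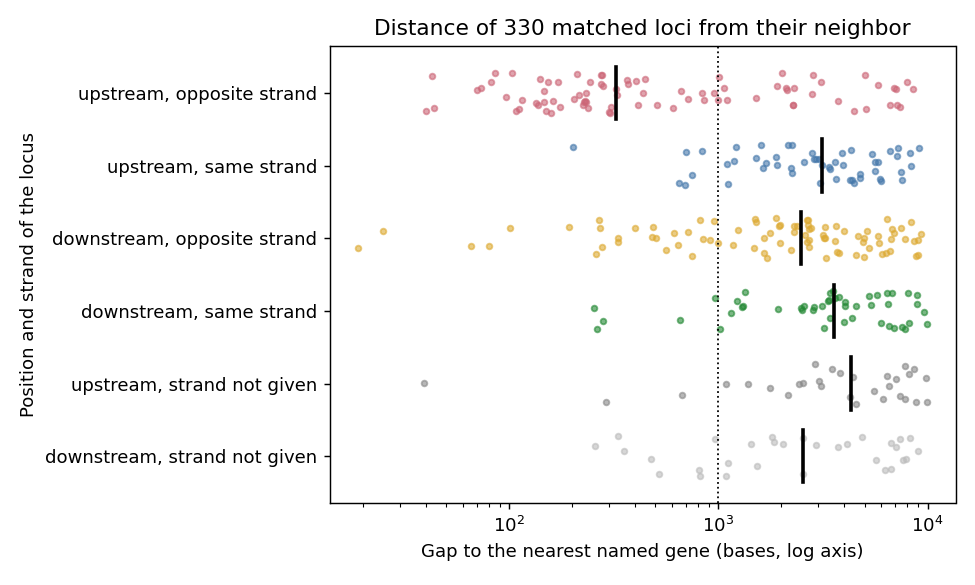
Gap between each of the 330 matched loci and its neighbor in bases (horizontal log axis) by position and strand; a point is a locus, placed at random within its row, a bar is the median and the dotted line marks 1 kb. The median of loci upstream on the opposite strand is 325 bases, below the medians of all other classes.

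Most of the matched loci lay in a gap between named genes in which a later assembly lists a further protein-coding gene. Between the named genes on either side of the locus, GRCr8 listed a protein-coding gene that was not among the named genes of the tables for 223 of 280 loci that could be placed (79.6%). Of the gaps between adjacent named genes that held a matched locus, 214 of 269 (79.6%) contained such a gene, against 2661 of 13292 of all gaps (20.0%) and 1145 of 4216 gaps of similar length (27.2%). Among loci with a strand 200 of 229 (87.3%) lay in such a gap, and among those without 23 of 51 (45.1%). Genes of GRCr8 were used by their order only, the loci could not be matched to them by sequence, and no locus is given their name.

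Strand and length of the loci followed the genes listed there. A single unlisted protein-coding gene lay in the gap for 146 loci. In 98 of these the strand could be compared relative to the neighbor, and it was that of the gene for 97 loci (99.0%). The one exception lay downstream on the opposite strand, a class in which 34 of 35 were alike, against 32 of 32 head-to-head loci. The span of a locus was 0.97 times the length of the gene at the median, with a Spearman rho of 0.85 across the loci, which is a description of places in the genome and not of replicates.

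The most abundant flanking locus was a stretch of 331 bases without a strand, downstream of the ciliary kinase gene Cilk1 at chr8:85480286-85480616 (coordinates of the deposited tables, for which the processing notes name rn6). Its TPM was 8663 in sevoflurane 0 h, 11826 in sevoflurane 6 h, 11135 in desflurane 0 h and 11623 in desflurane 6 h, while Cilk1 itself lay between 2.92 and 3.801. The next were 2 loci without a strand downstream of copies of Rn5-8s, the gene of 5.8S ribosomal RNA, on chromosomes 1 and 6. They had a TPM of 1327, 1979, 1412 and 1322 and of 953, 1319, 1070 and 961 in the same order, highest in sevoflurane 6 h. The neighbors stayed below a TPM of 2 in every library.

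Other abundant loci had a strand. A pair of loci downstream of Kin on chromosome 17 held between 524 and 582 and between 369 and 447, and the locus upstream of Phkg1, the muscle form of the phosphorylase kinase catalytic subunit, between 301 and 363. The locus upstream of Naa15 lay between 97.7 and 114 and in a gap where GRCr8 lists Ndufc1, a subunit of respiratory complex I, on the strand of the locus. Similarly, the locus downstream of Pheta2 (81.7 to 136) lay in a gap where Smdt1, part of the mitochondrial calcium uniporter, is listed. The locus upstream of the kinetochore gene Cenpq, whose promoter is shown above, had a TPM of 79.0, 77.6, 73.3 and 66.3, while Cenpq stayed below 1.

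Measured per length, the ratio of locus to neighbor spread widely about a median near 0 on the log2 scale. The locus was above its neighbor in all 4 libraries in 177 pairs and below it in 111. The median log2 ratio of locus to neighbor was 0.37, 0.36, 0.29 and 0.37 in the 4 libraries, with a 10th percentile between -3.53 and -3.25 and a 90th between 5.72 and 6.20. Its sign rested on the neighbors that were barely transcribed, of which 82 had a mean TPM below 1, since among 224 pairs with a mean TPM of at least 2 for both the mean of the 4 medians was -0.24. Head-to-head loci within 1 kb were below their neighbor in all 4 libraries in 29 of 56 pairs.

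With sevoflurane 20 loci were higher and 20 lower at 6 h than at 0 h. A feature was called when its TPM was above 2 in the higher library and the ratio of the libraries was above 2. By this rule 12.2% of the 327 loci that passed the minimum were called, against 9.52% of all features, which were higher in 5.35% and lower in 4.17%. With desflurane 11 loci were higher and 23 lower (10.4% of 326 loci), against 10.2% of all features, 4.32% higher and 5.93% lower. Between the controls 9 loci were higher in desflurane 0 h and 3 lower (3.7% of 324), against 3.45% of all features, 2.3% higher and 1.15% lower. At 6 h, 6 loci were higher with desflurane than with sevoflurane and 10 lower (4.95% of 323), against 4.73% of all features, 2.47% higher and 2.27% lower. Named genes above a TPM of 1 in all 4 libraries, where a matched locus also had to be assembled in all 4, were called in 7.14%, 7.91%, 2% and 2.99% of cases in the same 4 comparisons. The shares of called loci were thus near those of all features and above those of these named genes, a difference that was not tested, and the changes between 0 h and 6 h outnumbered those between the controls. When the libraries were put on a common scale by their median ratio over named genes, the log2 ratio of TPM moved by -0.06 with sevoflurane, by 0.11 with desflurane and by -0.13 between the controls, and the share of higher among called loci went from 32.4% to 42.4% with desflurane and from 75% to 57.1% between the controls.

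Some loci changed with both agents. In all, 60 loci were called with at least 1 agent, of which 13 were called with both in the same direction, 5 higher and 8 lower, and 1 in opposite directions. Of the 60, 7 were also called between the controls, where 12 of all 330 loci were called. The share of all features called with both agents was not determined. Whether these counts are particular to the loci was therefore not tested. The sign of the change was the same with both agents in 206 of 330 loci (62.4%), and the changes of log2(TPM + 1) were correlated across loci with r = 0.61 (Pearson) and rho = 0.41 (Spearman), with r at 0.46 without the locus upstream of Cyp2b1. Both changes come from different animals, while the loci within a library share its depth and scaling.

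The change common to both agents was fitted with limma across 9091 features, blocked on the agent, which left 1 degree of freedom for the residual. The 2 agents stood in as replicates, so the residual holds the difference between their changes and no spread between animals of the same group. Every SE of a common change given below is moderated, that is, drawn toward the spread of all fitted features. It can be smaller than the 2 changes of a single locus would give. At an adjusted p below 0.05 it called 4.19% of all features, 2.57% higher and 1.62% lower at 6 h, and 13 of 323 matched loci (4.02%), 6 higher and 7 lower. Of the 13 loci called with both agents by the rule of size, 10 passed this test. These loci were chosen by the same changes in the same 4 libraries, so passing is no separate support for them.

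**Figure D3:**
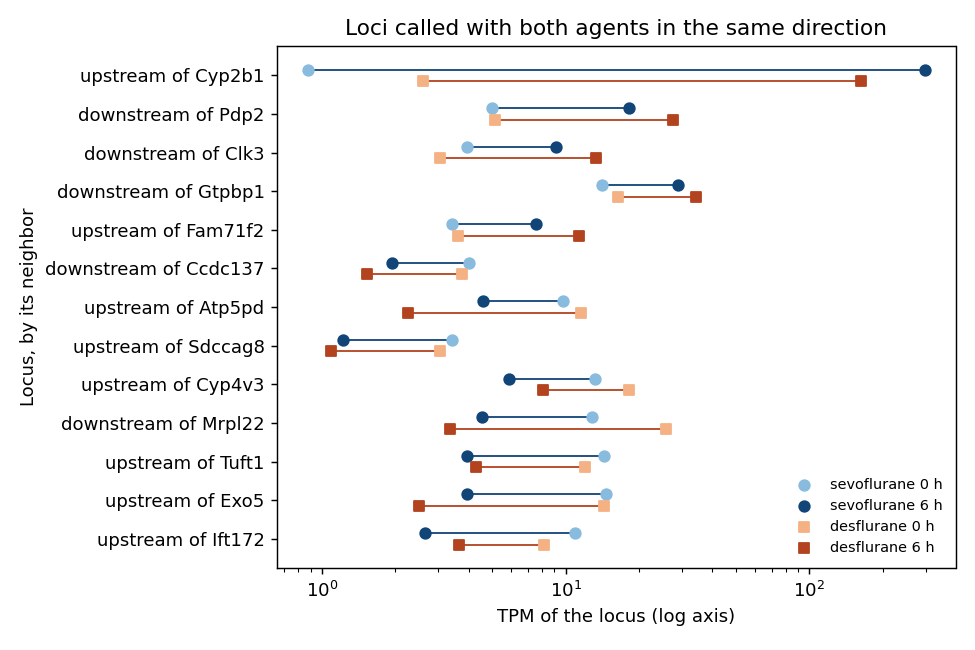
TPM (horizontal log axis) of the 13 loci called with both agents in the same direction, named by their neighbor; circles are the sevoflurane and squares the desflurane libraries, light at 0 h and dark at 6 h, and a line joins the 2 libraries of an agent. The 5 loci at the top were higher and the 8 below lower at 6 h with both agents, with the widest change upstream of Cyp2b1.

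The locus that changed most lay upstream of Cyp2b1, the main cytochrome P450 induced by phenobarbital in rat liver. This locus on the plus strand, the strand of the gene, at chr7:99142451-99155860 had a TPM of 0.878 in sevoflurane 0 h, 297 in sevoflurane 6 h, 2.61 in desflurane 0 h and 163 in desflurane 6 h. Cyp2b1 itself was at 5.73, 790, 12.1 and 465. Both 6 h libraries were far above both controls in the locus and in the gene. The change with sevoflurane and desflurane was 339-fold and 62.5-fold in the locus and 138-fold and 38.4-fold in the gene. The 339-fold rests on a control value below a TPM of 2 in the library of lowest depth. The deposited coverage of the locus was 2.07, 1017, 9.01 and 240. Coverage per TPM was thus lowest in desflurane 6 h, which leaves the size of the 62.5-fold change uncertain. On the log2(TPM + 1) scale the change of the locus was 7.31 with sevoflurane and 5.51 with desflurane. Its fitted common change was 6.41 (moderated SE 0.40, limma adjusted p = 0.00126). The controls also differed from each other in the locus by more than 2 times.

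On the other side of Cyp2b1, a locus without a strand that began 3157 bases past the gene was assembled at 6 h only, with a TPM of 24.9 in sevoflurane 6 h and 5.95 in desflurane 6 h, and was thus not among the matched loci. In sevoflurane 0 h a different stretch without a strand began 9121 bases past the gene, with a TPM of 2.30. The tables list Cyp2b1 on chromosome 7 whereas GRCr8 places it on chromosome 1. Genes of the Cyp2b family are near-identical in places, so the reads of the gene and of both loci may be divided among copies, and these values are uncertain in that respect.

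Besides it, 4 loci were higher at 6 h with both agents. The locus downstream of Pdp2, which encodes a phosphatase that reactivates pyruvate dehydrogenase, had no strand and lay 811 bases from the gene at chr19:594272-596615. Its TPM was 4.99, 18.2, 5.16 and 27.7, and that of Pdp2 was 11.8, 32.7, 10.9 and 48.2. Locus and gene were both higher at 6 h with both agents and both highest in desflurane 6 h, and the common change of the locus was 1.95 (SE 0.21, limma adjusted p = 0.00701). Pdp2 and Cyp2b1 were the 2 neighbors among the 13 that were called with both agents in the direction of their locus, and 9 neighbors were called with neither.

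The other 3 rose beside neighbors that were not called with either agent. Downstream of Gtpbp1, a GTP-binding protein, the locus had a TPM of 14.1, 28.8, 16.4 and 34.3, with the neighbor between 4.22 and 5.20. It lay in a gap where GRCr8 lists Sun2, a protein of the nuclear envelope, on the strand of the locus. Its call with sevoflurane was lost under the scaling by named genes and also when the desflurane control was taken. Near the end of Clk3, a kinase of splicing factors, the locus held 3.93, 9.16, 3.05 and 13.4. Its gap holds Edc3, which promotes the removal of mRNA caps, in GRCr8. Upstream of Fam71f2, which was below a TPM of 0.1 in every library, the locus held 3.41, 7.57, 3.64 and 11.3. The gap of this locus holds Hilpda, a protein of lipid droplets, in GRCr8. All 3 passed the common test, with limma adjusted p of 0.0274, 0.0390 and 0.0463.

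Of the 8 loci that were lower with both agents, the one upstream of the exonuclease gene Exo5 had the lowest adjusted p. Its TPM was 14.7, 3.95, 14.4 and 2.49, with the controls alike and both 6 h libraries below them, and its common change was -1.90 (SE 0.22, limma adjusted p = 0.00867). Exo5 held 3.76, 3.22, 5.24 and 2.36 and was called lower with desflurane. The locus lay on the strand of Exo5 in a gap where GRCr8 lists the zinc finger gene Zfp69. Upstream of Tuft1, the locus held 14.4, 3.93, 12.02 and 4.28, while Tuft1 stayed between 0.572 and 1.07. This locus lay in a gap where GRCr8 lists Cgn, which encodes the tight junction protein cingulin. The common change there was -1.47 (SE 0.21, limma adjusted p = 0.0190).

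Another 3 of these passed the common test. Downstream of Mrpl22, a mitochondrial ribosomal protein, the locus held 12.9, 4.52, 25.8 and 3.37, with Mrpl22 between 31.7 and 39.1. Upstream of Cyp4v3, a cytochrome P450 of fatty acid hydroxylation, the locus held 13.2, 5.85, 18.2 and 8.07, with Cyp4v3 between 2.75 and 4.00. This locus lay in a gap where GRCr8 lists Fam149a, and its call with desflurane was lost when the sevoflurane control was taken. That upstream of Ift172, a protein of transport in cilia, held 10.9, 2.65, 8.18 and 3.66, in a gap where GRCr8 lists Fndc4. The 6 h value lay below both controls in each of them.

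The remaining 3 did not reach the threshold of the common test. They lay upstream of Atp5pd, a subunit of ATP synthase (9.80, 4.60, 11.6 and 2.26, limma adjusted p = 0.0511), upstream of the centrosomal gene Sdccag8 (3.41, 1.22, 3.06 and 1.09, limma adjusted p = 0.1001) and downstream of Ccdc137 (4.02, 1.93, 3.74 and 1.53, limma adjusted p = 0.136). Each of these 3 loci lay on the opposite strand within 1 kb of its neighbor. Atp5pd itself was between 224 and 272 and moved with neither agent by the rule.

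The common test called 3 further loci. One without a strand, downstream of LOC257642, held 19.5, 48.0, 22.0 and 43.3 (common change 1.10, SE 0.16, limma adjusted p = 0.0217). Downstream of Slc28a2, a transporter of purine nucleosides, the locus held 64.5, 16.3, 72.3 and 40.7 (common change -1.37, SE 0.26, limma adjusted p = 0.0477) and Slc28a2 held 49.7, 22.8, 54.6 and 35.1. Locus and gene were lowest in sevoflurane 6 h. The last, downstream of Igtp, is described with the genes of the interferon response.

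Some loci lay next to genes of the interferon response. Of 53 listed genes of this kind, 4 were the neighbor of a matched locus, beside 322 of all 18060 named rows. All 4 loci and all 4 neighbors were below their control with both agents, although only 1 locus and 1 neighbor were called with each agent. Of all 330 loci, 135 were below their control with sevoflurane and 193 with desflurane. Downstream of Igtp, an interferon-inducible GTPase, the locus at chr10:43645573-43655656 held 79.1, 41.6, 83.3 and 16.7, and Igtp held 59.9, 18.2, 77.9 and 12.3. The order of the libraries was the same for both, with desflurane 6 h lowest, and the common change of the locus was -1.58 (SE 0.31, limma adjusted p = 0.0477). Its gap holds Irgm2, another GTPase of this family, in GRCr8.

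The locus downstream of Mrpl22, described above, lies in the same stretch of chromosome 10 (chr10:43616671-43620330), in a gap where GRCr8 lists Igtpl1. Upstream of the guanylate-binding protein gene Gbp4 the locus held 23.4, 10.6, 20.4 and 20.0, and Gbp4 was between 0.787 and 1.54. GRCr8 lists Gbp7 in the gap of the locus. This locus was called with sevoflurane, but no longer when the desflurane control was taken. Next to Ddx58, a sensor of viral RNA, the locus held 4.13, 2.79, 4.14 and 3.11, and next to Usp18, which removes the ubiquitin-like ISG15, 1.496, 1.23, 3.13 and 2.27.

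Loci among the histone genes of chromosome 17 differed between the controls as well as with time. Of 5 loci upstream of histone genes 4 had no strand, 3 were called lower with desflurane, where 5.93% of all features were, and 3 were called between the controls, 2 higher and 1 lower in desflurane 0 h, against 3.45% of all features. The locus upstream of Hist1h2an held 16.5, 18.6, 34.4 and 10.1, that of Hist1h2af 10.3, 11.1, 17.04 and 7.70 and that of Hist1h2ail1 2.27, 3.56, 5.36 and 2.48. In these 3 loci desflurane 0 h was the highest library, and none was called with sevoflurane. The locus upstream of H1f1 ran the other way between the controls, with 4.83, 3.12, 1.85 and 2.79. Histone genes are near-identical copies, so the reads of these loci may be shared.

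Loci also lay next to genes of other lists. Of 89 listed genes of xenobiotic metabolism 2 had a matched locus, beside 322 of all 18060 named rows. They were Cyp2b1 and Sult1e1, which encodes estrogen sulfotransferase. The locus of Sult1e1, upstream and on the opposite strand, held 44.7, 55.4, 44.5 and 61.2 beside a neighbor between 1631 and 2518, and was not called. Gclm, the modifier subunit of glutathione synthesis, had a locus on each side. The head-to-head locus, whose promoter region is shown above, held 4.93, 3.88, 7.90 and 3.70 and was called lower with desflurane. That call was lost under the common scale and also when the sevoflurane control was taken. The downstream locus held 5.30, 8.02, 4.92 and 6.51. Gclm was at 109, 63.3, 155 and 86.7, lower at 6 h with both agents, as was its head-to-head locus. Loci beside Msmo1, Angptl4, Csf1r, F2, Cd8a, Oit3 and Obp3 were not called with either agent, and no clock gene had a matched locus.

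Among the 56 head-to-head loci within 1 kb, 13 (23.2%) were called with at least 1 agent, against 18.2% of all 330, which include these 56. Of all features, 9.52% were called with sevoflurane and 10.2% with desflurane, and the share called with at least 1 agent was not determined. Whether head-to-head loci were called more often was not tested. Upstream of Fen1, a flap endonuclease of DNA replication, the locus held 74.4, 24.9, 67.6 and 45.6, and Fen1 held 2.26, 4.70, 2.01 and 3.26. It was the only locus called against the direction of a called neighbor, lower with sevoflurane while Fen1 was higher, and GRCr8 lists Tmem258 in its gap. Upstream of Slc20a2, a phosphate transporter, the locus held 6.38, 19.0, 10.6 and 10.8, and upstream of Azgp1, a secreted lipid-mobilizing protein, 3.39, 8.85, 5.38 and 3.97, both highest in sevoflurane 6 h. The call of the Slc20a2 locus with sevoflurane was lost when the desflurane control was taken. Upstream of Grtp1 the locus held 5.66, 6.83, 7.38 and 1.12 and was lowest in desflurane 6 h, with Grtp1 between 5.05 and 6.61. In this class 1 neighbor was called with each agent.

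Across all pairs, loci and neighbors changed alike only weakly. In 248 pairs with a mean TPM of at least 1 for both, the change of log2(TPM + 1) had the same sign in 56.5% with sevoflurane and 56.0% with desflurane, against 55.8% and 57.5% of 2316 adjacent named genes. Pearson r across the pairs was 0.48 and 0.39 and Spearman rho 0.19 and 0.12. A few pairs decided these values. Without the pair of Cyp2b1 r was 0.18 and 0.20, and without that of Rps6 it was 0.58 and 0.50. Rps6 is a ribosomal protein gene that every cell uses, and it was listed at 0 in both controls and at 122 and 139 at 6 h, while the locus downstream of it stayed between 8.87 and 10.3. Without both pairs r was 0.24 and 0.27. Adjacent named genes gave 0.20 and 0.16, and 337 loci farther than 10 kb from their nearest named gene 0.13 and 0.12. The pairs of a library share its depth and scaling.

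**Figure D4:**
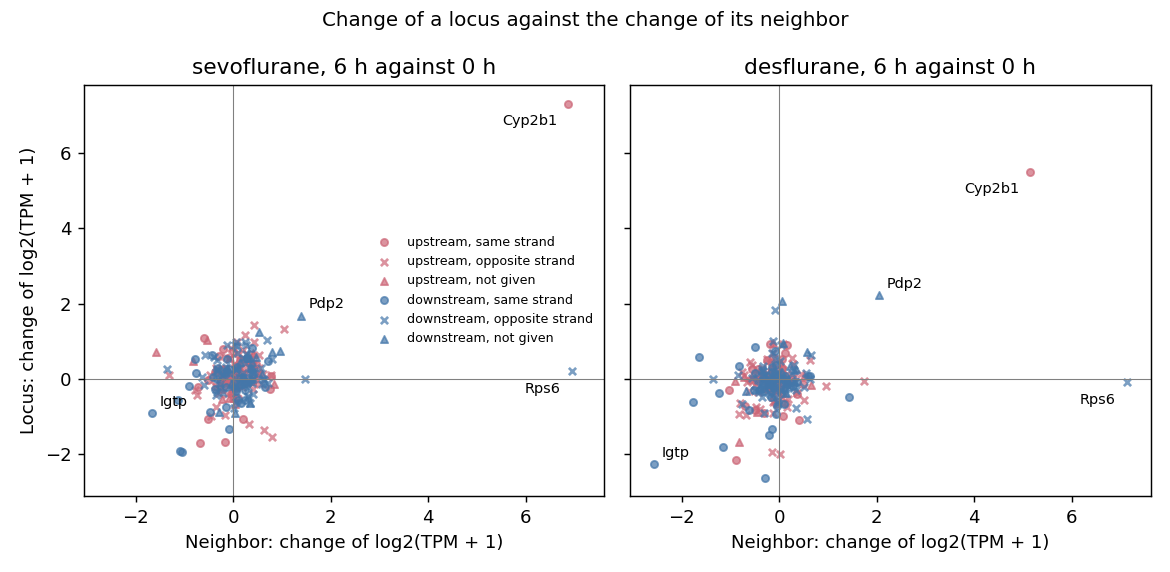
Change of each locus (vertical axis) against the change of its neighbor (horizontal axis), both as log2(TPM + 1) at 6 h minus 0 h, for sevoflurane (left) and desflurane (right) in the 248 pairs with a mean TPM of at least 1; color gives the position and symbol the strand. Most pairs lie near 0, the pair of Cyp2b1 is at the top right, and the neighbor Rps6, listed at 0 in both controls, lies far to the right beside a locus near 0.

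The pairs were also divided by position and strand. Among 21 pairs with a downstream locus without a strand the sign was the same in 71.4% with both agents, and r was 0.72 and 0.68, or 0.60 and 0.35 without the pair of Pdp2. Beside Pdp2, loci downstream of Eif4ebp2, an inhibitor of translation initiation (2.09, 4.1998, 2.91 and 2.97), of Tgfbr3 (2.28, 4.22, 2.69 and 5.01) and of Pdxk, pyridoxal kinase (5.58, 9.74, 6.82 and 8.91), were highest in the library in which their neighbor was highest. Eif4ebp2 held 3.28, 7.38, 5.004 and 4.95, Tgfbr3 2.18, 2.92, 2.05 and 3.51, and Pdxk 10.2, 18.5, 14.9 and 17.5. These 3 were chosen after their values were seen. In loci downstream on the opposite strand r was 0.01 and -0.01 in 62 pairs, and in head-to-head loci within 1 kb it was 0.16 and 0.08 in 50 pairs. In 38 pairs upstream on the same strand r was 0.88 and 0.83, or 0.17 and 0.20 without the pair of Cyp2b1. Downstream on the same strand, where a run-on locus would lie, r was 0.45 and 0.28 in 35 pairs. Without the pair of Igtp it was 0.41 and 0.07. The sign in these 35 pairs was the same in 45.7% with sevoflurane and 57.1% with desflurane. Upstream loci without a strand gave an r of -0.30 and 0.33 in 20 pairs. Whether these classes differ was not tested.

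Calls of locus and neighbor coincided in a part of the pairs. With sevoflurane 21 neighbors were called, 7 in the direction of a called locus and 1 against it. With desflurane 18 neighbors were called, 6 in the direction of a called locus. Of all matched loci above the minimum, 12.2% were called with sevoflurane and 10.4% with desflurane. Whether calls coincided more often than these shares give was not tested. Several neighbors that changed strongly had a locus that did not. Gpd1, the glycerol-3-phosphate dehydrogenase of the cytosol, held 220, 269, 196 and 529, and its downstream locus 21.8, 32.8, 39.8 and 28.4. Upstream of Brap the locus stayed between 35.1 and 40.4 while Brap went from 8.14 to 29.5 with desflurane. Downstream of Cd8a, a marker of cytotoxic T cells, the locus stayed between 29.2 and 30.4, while Cd8a held 2.24, 1.08, 3.08 and 0.602.

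Between the agents at 6 h, 16 loci were called, and 10 of them had been called with 1 agent only. Downstream of LOC100910973 the locus, in a gap where GRCr8 lists Ms4a18, held 94.7, 24.1, 33.5 and 61.7, and the controls differed from each other here as much as the 6 h libraries. That downstream of Nrep held 6.07, 3.77, 8.54 and 1.74 beside Nrep at 63.2, 28.2, 52.4 and 23.0. Each of these comparisons rests on a single animal a group.

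Many flanking loci were assembled at 1 time only. Of the flanking loci of sevoflurane 6 h, 1184 (51.1%) overlapped no assembled locus of sevoflurane 0 h, and 879 of these had no strand. In desflurane 6 h 692 (36.2%) overlapped none of desflurane 0 h. In the reverse direction the numbers were 480 (29.6%) and 612 (33.2%). Their median TPM was between 1.43 and 2.17, near the limit of what was assembled, so absence from a library is not absence of transcription.

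Loci seen at both 6 h libraries and in neither control were few, 26 of 566 flanking loci matched between the 6 h libraries, and 17 of 528 showed the reverse. The highest of the 26 lay downstream of Cdca7, with a TPM of 19.7 in sevoflurane 6 h and 20.7 in desflurane 6 h. Of the neighbors of the 26, 4 were called higher with both agents, 1 with desflurane only and 21 with neither. Of the neighbors of the 17, 1 was called lower with both, 2 with 1 agent and 14 with neither. Of all features above the minimum, 5.35% were called higher with sevoflurane and 4.32% with desflurane, and 4.17% and 5.93% lower. The share called with both agents was not determined, so these counts were not tested against it. Downstream of Asl, argininosuccinate lyase of the urea cycle, the locus held 2.21 and 4.50, and Asl itself 101, 380, 130 and 459. Upstream of Alas1, the rate-limiting enzyme of heme synthesis, the locus held 1.68 and 4.77, and Alas1 itself 73.5, 582, 60.9 and 979. Of those seen only in the controls, the one upstream of Adh7, an alcohol dehydrogenase, held 2.13 and 2.11, and Adh7 itself 12.6, 2.51, 9.16 and 4.11. These loci were chosen after their values were seen.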

How the data were processed

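Total RNA of 4 rat livers was sequenced from stranded libraries, and the submitters' processing notes name HISAT2, SAMtools, StringTie and the assembly rn6, without versions. The authors deposited a table per library with TPM, FPKM and coverage for named genes and assembled loci. The deposited TPM column was handled as a score, since assembled loci alone fill its total. Deposited coverage and FPKM served to derive the aligned bases. No read counts were given, so no counting interval is possible.

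Loci were classified against the named rows of all 4 tables (18060 rows) and matched in all 6 pairs of libraries. Changes are differences of log2(TPM + 1), which understate the changes of low values. Calls (TPM above 2, ratio above 2) have 1 library on each side and no p-value. limma 3.58.1 (R 4.3.3, moderated two-sided test with a mean-variance trend, p-values adjusted by Benjamini-Hochberg) was fitted to features with a mean TPM of at least 2. Its SEs and p-values rest on the spread between single animals, moderated over all fitted features. Other steps used Python 3.11.15, pandas 2.3.3 and scipy 1.17.1. Matching and fit were tested on simulated data.

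The members, the lists and the tests were chosen with earlier results of these data known. Named loci were the 10 with the highest mean TPM, the 5 most changed in each direction with each agent, the 5 per direction called with both agents, the 10 whose neighbor changed most, those called against a called neighbor, those next to listed genes and the 3 with the lowest adjusted p, 49 in all, of which some are not reported here; others named were chosen after their values were seen. RefSeq genes of GRCr8 (17087 of 17455 symbols found) were used for names and order.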

Additional observations from a re-analysis of the deposited data

Results flagged for a closer look

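The locus upstream of Olah, a thioesterase of fatty acid synthesis, was called in opposite directions with the agents. This stretch of 420 bases without a strand had a TPM of 6.31 in sevoflurane 0 h, 14.6 in sevoflurane 6 h, 10.5 in desflurane 0 h and 4.57 in desflurane 6 h, and Olah was at or near 0 in every library. On the log2(TPM + 1) scale it was 1.09 above its control under sevoflurane and had a change of -1.05 under desflurane, a difference of 2.14 that was not tested, since each group is a single animal.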

How the results depend on the processing

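No paired analysis was possible because each group holds 1 library with no replicate number, and the block on the agent in the common fit is the only pairing. With a ratio above 1.5 in place of 2, the called loci were 104 with sevoflurane, 86 with desflurane, 41 between the controls and 65 between the agents at 6 h, and with a ratio above 3 they were 12, 13, 0 and 3. Matching in the 2 compared libraries only gave 62 with desflurane, 35 between the controls and 27 between the agents, where more loci enter. A reciprocal overlap of 0.5 gave 22 between the controls and 25 between the agents, and an overlap of 0.9 gave 7 between the controls, as did the scaling by named genes. The common change called 7 loci at a minimum mean TPM of 1, 7 at 5 and 0 with no minimum, where limma left 33 of 330 at an unadjusted p below 0.05. Leaving out a library leaves no residual degree of freedom with the block on the agent; without the block, where the lone library of a time is assumed to vary like the others, between 1 and 9 loci were called, 2 without sevoflurane 0 h, 9 without sevoflurane 6 h, 1 without desflurane 0 h and 5 without desflurane 6 h, against 11 with all 4. Within 5 kb, 77.8% of head-to-head loci lay within 1 kb. At a minimum mean TPM of 5 the r of locus and neighbor with sevoflurane was 0.59 and the same sign 62.8%; without Cyp2b1 r was 0.18 and 0.20, without Rps6 0.58 and 0.50 and without both 0.24 and 0.27. The level against the neighbor, 0.35 as a mean of 4 medians, was -0.24 at a minimum mean TPM of 2 and 0.23 with named rows over 200 bp only. Among changes of called named loci, 6 lost their call under the scaling or the control of the other agent and none reversed. The settings with a strand, with 3 libraries and without a locus were chosen after seeing the data. Depth limits loci near a TPM of 2 most.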
